A study of Arabidopsis thaliana with 8 samples.

Results

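NRT2.1 to NRT2.7 make up the family of high-affinity nitrate transporter genes of Arabidopsis thaliana. They were chosen by their locus identifiers and are 7 of the 27444 nuclear protein-coding genes annotated. For each gene, the bases under called chromatin immunoprecipitation (ChIP-seq) regions were measured on the gene span, from annotated start to end, and in the 1000 bp upstream of the start. The nuclei came from non-hair cells, the cells of the root epidermis that form no root hair. A stable line in the Col-0 background was used, and it was shared by every library. It expressed the biotin ligase BirA from the ACT2 promoter in all cells and a nuclear tagging fusion (NTF) from the GLABRA2 (GL2) promoter. Biotin on the tagged nuclei let them be captured on streptavidin beads (the INTACT method), so the cell population is defined by where the GL2 promoter is active. Plants grew for 10 days on 0.5-strength Murashige and Skoog medium with 1% sucrose, at 20 °C with 16 h of light and 8 h of dark. Root segments of 1.25 cm were cut from the zone of fully differentiated cells, without the root tip or lateral roots, and 3 g of tissue went into a sample. The series held 8 samples. There was 1 library each for H3K4me1, H3K4me3, H3K27ac, H3K27me3, H2A.Z (a variant of histone H2A) and H3 as such, and the 2 input samples were not analysed here.

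NRT2 proteins move nitrate together with protons across membranes and work at the low nitrate concentrations often met in soil. Most of them need the small partner protein NRT3.1 (NAR2.1) to reach the plasma membrane and to be active. NRT2.1 is the main high-affinity uptake system of the root, is induced by nitrate and is repressed when nitrogen is plentiful, and its repression is known to involve H3K27me3. NRT2.2 adds a smaller share of uptake. NRT2.4 and NRT2.5 are genes of nitrogen starvation whose products take up nitrate in outer cell layers of the root, and NRT2.7 loads nitrate into the vacuoles of seeds. H3K27me3 is the mark of Polycomb repression, H3K27ac and H3K4me3 are known from the starts of active genes, H3K4me1 from gene bodies in plants, and H2A.Z from gene starts and from silent genes that respond to the environment.

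H3K27me3 regions lay on 6 of the 7 NRT2 genes and H2A.Z regions on all 7, whereas H3K27ac regions lay on NRT2.3 and NRT2.7 only. H3K27me3 covered between 30.5% and 74.0% of the span of NRT2.1 to NRT2.6 and none of NRT2.7. NRT2.7 was the only member with both H3K4me3 and H3K27ac on its span. Each value rests on 1 library with no replicate, so there is no spread to hold a difference against and no test was made. The deposited regions carry no score and the depth is unknown, so a base outside a region shows only that none was called there, and a share of a span is not an amount of the mark.

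**Figure D1:**
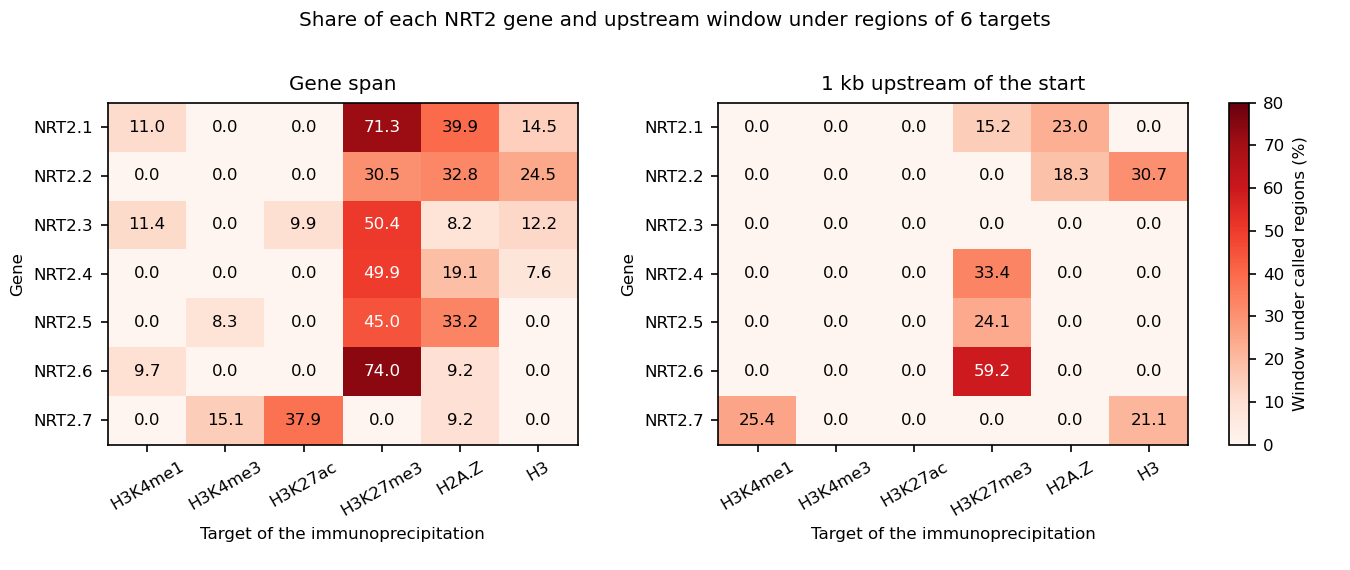
Percent of the gene span (left) and of the 1 kb upstream window (right) under called regions, for the 7 NRT2 genes (vertical axis) and 6 ChIP-seq targets (horizontal axis), with 1 library per target and the colour scale in percent. On the gene span the H3K27me3 column is filled from NRT2.1 to NRT2.6 and empty for NRT2.7, which has the highest H3K27ac value of the family.

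Against the whole genome, the family had more genes with H3K27me3 and H2A.Z and fewer with H3K27ac. On the gene span, 6 of 7 members had at least 1 bp under H3K27me3, where the share of all protein-coding genes was 45.0%. For H2A.Z the count was 7 of 7, against 56.2% of all genes. For H3K27ac it was 2 of 7, against 68.3%. H3K4me3 was on 2 of 7 members, and 40.1% of all genes carried it. H3K4me1 was on 3 of 7 members and 53.4% of all genes, and H3, the histone itself, on 4 of 7 members and 45.0% of all genes. At NRT2.3, NRT2.6 and NRT2.7 the H2A.Z was a single region of the smallest size in that library, 183 bp, and without regions of that size the count was 4, against 35.2% of all genes. Counts for H3K4me1, H3K4me3 and H3 lay near these shares and say nothing particular about the members. The 6496 protein-coding genes of the same length range, 1951 to 2763 bp, gave shares of 46.5% for H3K27me3, 60.9% for H2A.Z and 78.3% for H3K27ac. For H3K4me3, H3K4me1 and H3 they gave 48.3%, 64.1% and 48.6%. H3K27me3 together with H2A.Z and without H3K27ac was the state of 5 members, NRT2.1, NRT2.2, NRT2.4, NRT2.5 and NRT2.6, of 10.2% of all genes and of 9.16% of those of similar length. H3K27me3 without either H3K27ac or H3K4me3 was the state of 4 members, all of these except NRT2.5, of 13.7% of all genes and of 10.1% of those of similar length. The reverse state, H3K27ac with H3K4me3 and without H3K27me3, was held by NRT2.7, by 20.6% of all genes and by 24.8% of those of similar length. Among the inputs, 1 is labelled as belonging to H3K27me3, and a separate preparation of that library cannot be told apart from the mark.

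The members also differed from the typical gene in how much of the span H3K27me3 covered. The median share of the gene span under H3K27me3 was 49.9% over the 7 members and 0% over all protein-coding genes, whose mean was 13.0%. For H2A.Z the medians were 19.1% for the members and 5.92% for all genes. H3K27ac went the other way, with a median of 0% for the members and 11.9% for all genes. NRT2.6 had the highest H3K27me3 share, 74.0%, and 2.94% of all protein-coding genes reached it. NRT2.1 followed with 71.3%, a share that 3.38% of genes reached. NRT2.3 (50.4%), NRT2.4 (49.9%) and NRT2.5 (45.0%) stood close together, with no replicate to order them. NRT2.2 had the lowest share above 0, 30.5%, which 16.4% of all genes reached.

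**Figure D2:**
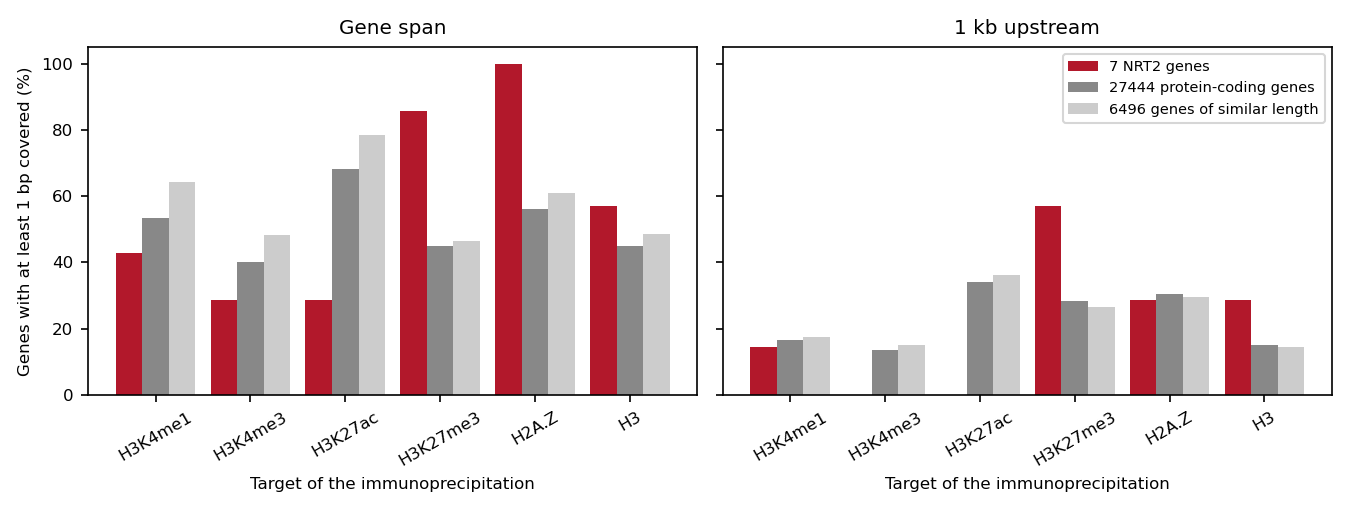
Percent of genes (vertical axis) with at least 1 bp of the gene span (left) or the 1 kb upstream window (right) under regions of each target (horizontal axis), for the 7 NRT2 genes, all 27444 nuclear protein-coding genes and the 6496 genes of similar length. The NRT2 bars stand above both grey bars for H3K27me3 in both windows and for H2A.Z on the span. They stand below them for H3K27ac, which was called upstream of none of the 7 genes. H3 bars also stand above the grey bars in both windows, with counts near the background.

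Upstream of the start, H3K27me3 was again the target found at most members. It covered part of the 1000 bp window of 4 of 7 members, against 28.3% of all protein-coding genes. These were NRT2.6 with 592 bp, NRT2.4 with 334 bp, NRT2.5 with 241 bp and NRT2.1 with 152 bp. H3K27ac and H3K4me3 were in none of the 7 upstream windows, and 34.1% and 13.6% of all genes had them there. H2A.Z lay upstream of 2 members, NRT2.1 with 230 bp and NRT2.2 with 183 bp, against 30.3% of all genes. H3 lay upstream of NRT2.2 with 307 bp and of NRT2.7 with 211 bp, against 14.9% of genes. H3K4me1 lay upstream of 1 member, NRT2.7, with 254 bp, against 16.4%. The upstream window of NRT2.7 runs into its neighbour AT5G14580 for 872 of its bases. Both the 254 bp of H3K4me1 and the 211 bp of H3 lie inside that gene. NRT2.3 had no region of any target in its upstream window. Among genes of similar length, upstream shares were 26.4% for H3K27me3, 36.1% for H3K27ac, 15.1% for H3K4me3, 29.6% for H2A.Z, 14.4% for H3 and 17.3% for H3K4me1. The upstream counts for H2A.Z, H3K4me1, H3K4me3 and H3 were thus near the background and say nothing particular about the members.

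In the first 500 bp of the gene, where H3K27ac and H3K4me3 are usually found, H3K27me3 and H3K27ac showed the same division. H3K27me3 was there on 5 of 7 members and 30.9% of all genes, and H2A.Z on 4 members and 38.5% of genes. H3K27ac was there on 1 member, NRT2.7, whereas 54.7% of all genes had it. H3K4me3 was on the same single member, against 29.3% of genes. H3K4me1 and H3 were there on none of the members, and on 11.1% and 13.2% of genes. The counts for H3K4me3, H2A.Z, H3K4me1 and H3 in this stretch were near the shares of all genes.

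The upstream bases under H3K27me3 at 4 members show what sequence the mark covered before the start. Those of NRT2.1 and NRT2.6 reach the start, and those of NRT2.4 and NRT2.5 end 179 bp before it. Each is written 5′ to 3′ on the strand of the gene, from the RefSeq assembly TAIR10.1, whose nuclear coordinates are those of TAIR10. The stretches of NRT2.1 and NRT2.5 are whole. Those of NRT2.4 and NRT2.6 are the 300 covered bases nearest to the start. Capitals in NRT2.1 mark the 47 bases that lie under H2A.Z as well, and capitals in NRT2.4 mark a match to GAATATTC, the motif described after the lines.
NRT2.1 (chr1:2523871-2524022, plus strand): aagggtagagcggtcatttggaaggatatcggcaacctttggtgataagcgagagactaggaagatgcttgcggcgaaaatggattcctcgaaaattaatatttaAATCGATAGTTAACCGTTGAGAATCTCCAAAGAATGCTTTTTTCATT
NRT2.4 (chr5:24443886-24444185, plus strand): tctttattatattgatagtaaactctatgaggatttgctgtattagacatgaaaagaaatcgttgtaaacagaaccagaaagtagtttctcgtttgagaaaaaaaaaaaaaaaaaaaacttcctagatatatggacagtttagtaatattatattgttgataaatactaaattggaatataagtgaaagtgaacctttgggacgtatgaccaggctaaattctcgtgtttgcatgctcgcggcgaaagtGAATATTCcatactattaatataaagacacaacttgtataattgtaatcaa
NRT2.5 (chr1:4415895-4416135, plus strand): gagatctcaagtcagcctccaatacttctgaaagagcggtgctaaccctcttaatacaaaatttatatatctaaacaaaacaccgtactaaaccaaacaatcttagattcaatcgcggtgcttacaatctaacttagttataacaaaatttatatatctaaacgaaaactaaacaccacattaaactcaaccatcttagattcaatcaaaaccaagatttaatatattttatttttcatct
NRT2.6 (chr3:16479560-16479859, minus strand): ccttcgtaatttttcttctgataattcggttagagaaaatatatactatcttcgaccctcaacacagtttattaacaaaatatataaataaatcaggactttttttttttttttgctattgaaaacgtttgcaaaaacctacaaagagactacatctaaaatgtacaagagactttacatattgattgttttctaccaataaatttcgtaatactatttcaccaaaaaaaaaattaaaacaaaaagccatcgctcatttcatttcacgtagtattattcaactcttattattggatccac
The stretches held 39.5% G and C in NRT2.1, 29.3% in NRT2.4, 29.9% in NRT2.5 and 27% in NRT2.6, and the median of all upstream windows of 1000 bp was 32.6%, with quartiles of 29.2% and 36.7%. Of 5 motifs searched on both strands of the 1000 bp windows, GAATATTC was found upstream of NRT2.4 alone among the members, from 230 to 222 bp before the start and under H3K27me3, and in 2.82% of all promoter windows. AAACCCTA, the core of the telobox bound by factors that recruit Polycomb proteins, was upstream of NRT2.1 alone, from 817 to 809 bp before the start and under H2A.Z. It was present in 12.4% of all windows. GAGAGAGA was upstream of NRT2.5 alone, 780 bp before the start and under no region, with 14.8% of all windows holding it. TGACG, the core of sites bound by TGA factors, was upstream of NRT2.1, NRT2.3 and NRT2.7 under no region, and in 54.1% of all windows. CACGTG, the G-box, was in 14.8% of all windows and in none of the 7. The counts for AAACCCTA, GAGAGAGA, TGACG and CACGTG were near the shares of all windows and say nothing particular about the members. None of the motifs contains another. A match is a run of letters and is not evidence of binding.

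**Figure D3:**
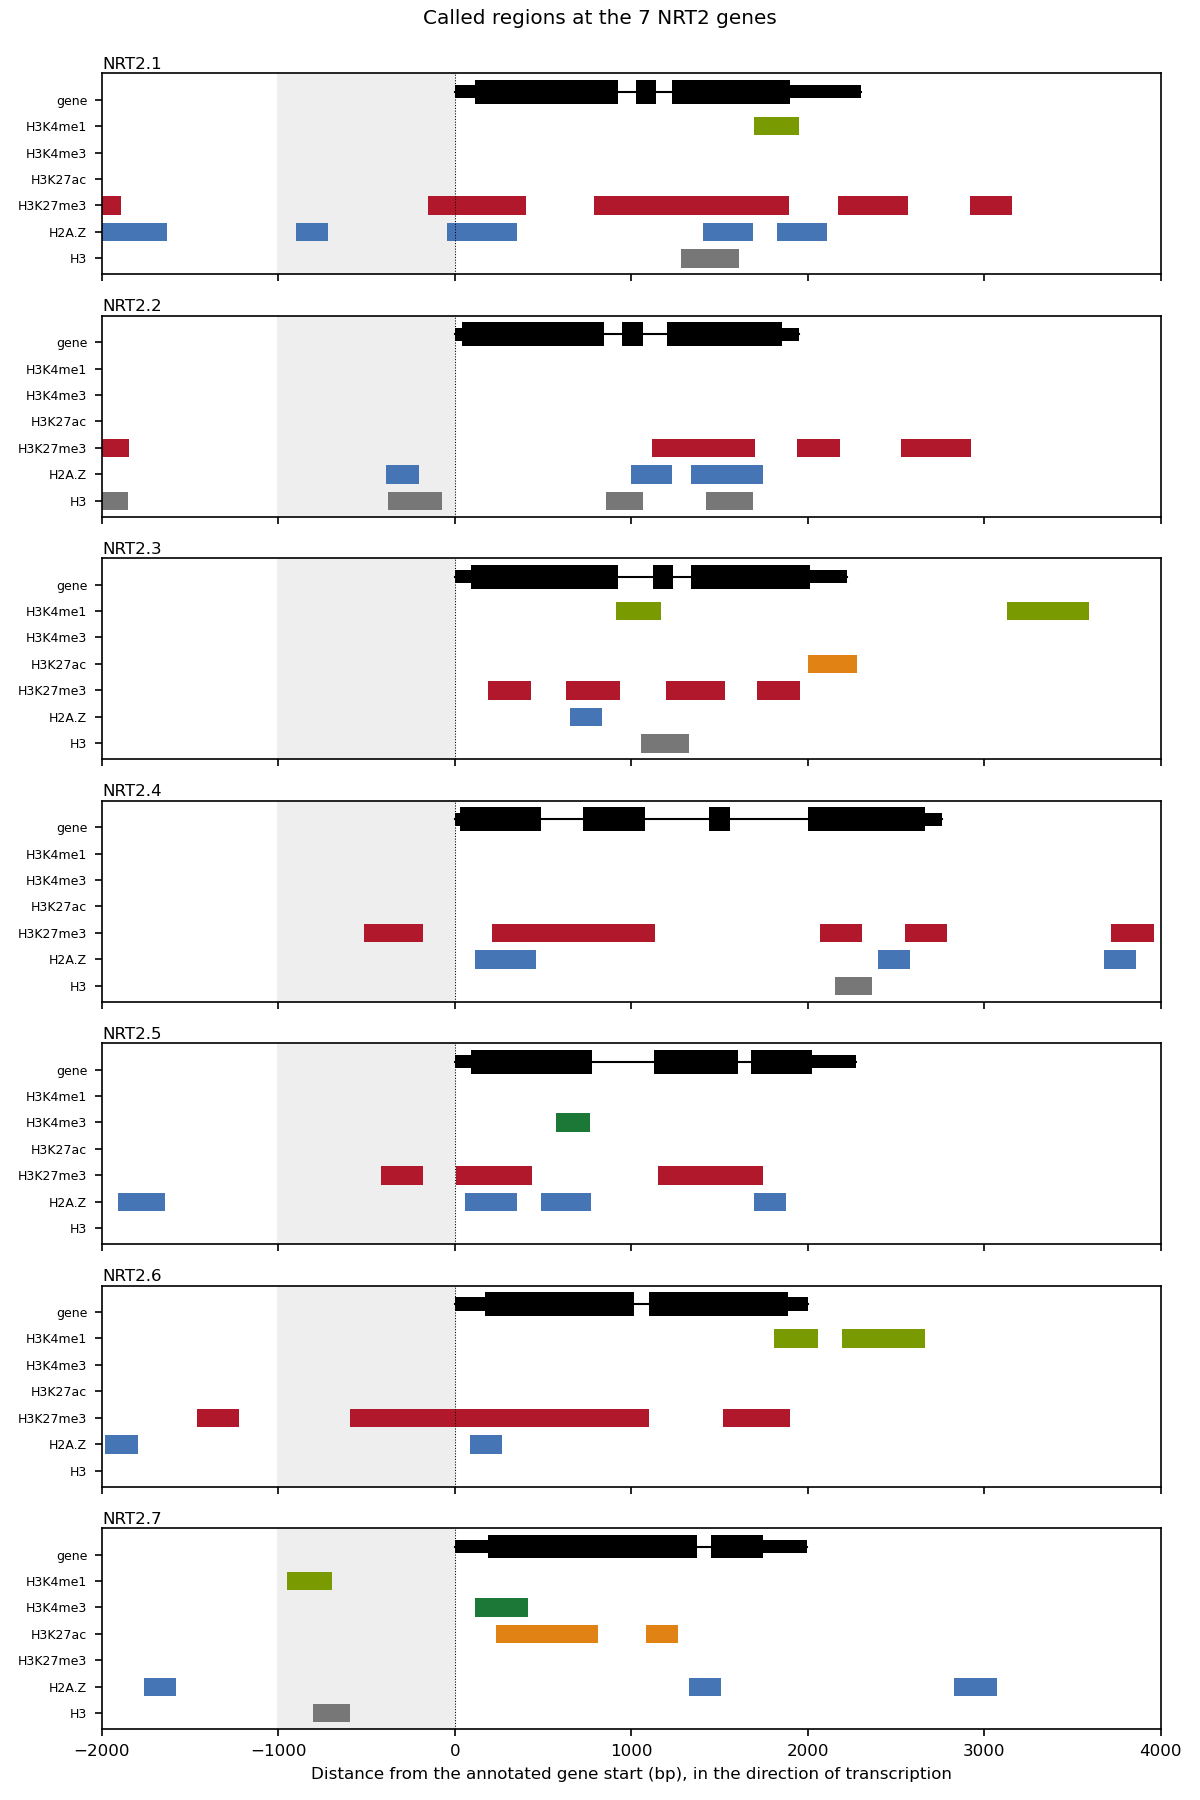
Called regions of 6 targets (coloured bars, rows) by distance in bp from the annotated gene start in the direction of transcription, with exons as black boxes, tall where coding, and the 1 kb upstream window shaded. NRT2.6 and NRT2.1 have the longest H3K27me3 bars, NRT2.3 has 4 short ones, and NRT2.7 has none.

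NRT2.1 (AT1G08090), the main uptake transporter, spans chr1:2524023-2526322 on the plus strand, 2300 bp with 3 exons. H3K27me3 covered 1640 bp of the gene in 3 regions. The first reached from 152 bp before the start to 405 bp past it, over the untranslated leader of 116 bp and the start of the first coding exon. The second, from 786 to 1892 bp, was 1106 bp long and ran from the end of the first exon through nearly all of the remaining coding sequence. Only 1.91% of all H3K27me3 regions of the genome were longer. The third crossed the gene's end, with 129 bp inside and 270 bp beyond. H2A.Z covered 918 bp (39.9%), the highest share of the family, which 5.24% of all genes reached. An H2A.Z region of 397 bp sat across the start, from 47 bp before to 350 bp past it, and another pair of regions lay near the gene's end. Of the H2A.Z bases, 76.6% were also under H3K27me3. H3K4me1 covered 254 bp (11.0%) at the end of the coding sequence and H3 covered 333 bp (14.5%), while H3K4me3 and H3K27ac were at 0 bp. Only 19.3% of the span lay under no region of any target.

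NRT2.2 (AT1G08100), the smaller contributor to uptake, spans chr1:2527170-2529120 on the minus strand, 1951 bp with 3 exons. It differed from NRT2.1 in where H3K27me3 lay. The first 1115 bp of the gene held no H3K27me3 region, and none lay in the upstream window. The 596 bp that were covered (30.5%) came from a region of 585 bp, from 1115 to 1700 bp past the start, and 11 bp of a region that continued past the gene's end. H2A.Z covered 639 bp (32.8%), in regions of 410 and 229 bp inside the gene, and 74.6% of it lay under H3K27me3. H3 covered 478 bp (24.5%), the highest share in the family, and also 307 bp upstream. No H3K4me1, H3K4me3 or H3K27ac region touched the gene.

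These genes are near-copies, and that bears on which bases short reads can be placed on. The proteins of NRT2.1 (530 residues) and NRT2.2 (522 residues) were 87.0% identical. Of the bases of each gene, 506 lay in words of 36 bases that occur more than once in the nuclear genome, which is 22.0% of NRT2.1 and 25.9% of NRT2.2, and every such word was shared between these genes. With words of 50 bases, 18.2% of the bases of NRT2.1 and 21.5% of those of NRT2.2 lay in repeated words. H3K27me3 covered 197 of the 506 bases (38.9%) in NRT2.1, against 80.4% of its other 1794 bases. In NRT2.2 it covered 52 of the 506 (10.3%), against 37.6% of the other 1445. The gap between the first and second H3K27me3 regions of NRT2.1, 381 bp long, consisted to 81.1% of shared bases (309 bp) and held no region of any target. In the uncovered first 1115 bp of NRT2.2, 454 bp were shared. H2A.Z followed the same course, with 11.5% of the shared bases of NRT2.1 covered against 47.9% of the others, and 0 bp against 44.2% in NRT2.2. The sources used here do not state how long the reads were or how reads with several placements were treated, and the part of the shared sequence in these gaps was not tested. Apart from this pair only NRT2.5 held repeated words of 36 bases, over 67 bp, and the upstream windows held none.

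NRT2.1 and NRT2.2 face each other with their ends, and H3K27me3 ran through the space between them. The space is 847 bp long and holds no other gene. H3K27me3 covered 500 bp of it (59.0%) in 2 regions, and no other target had a region there. Joining H3K27me3 regions that lay within 500 bp of each other gave a single domain of 5 regions over 4135 bp, from chr1:2523871 to 2528005, of which 69.8% was covered. The domain runs from the promoter of NRT2.1 to the part of NRT2.2 where the uncovered stretch begins. On the far side of NRT2.1, 5411 bp away, ACA7 (a carbonic anhydrase gene) had 55.2% of its span under H3K27me3. AT1G08110, which lies 6130 bp beyond NRT2.2, had none, and had 21.7% under H3K27ac.

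**Figure D4:**
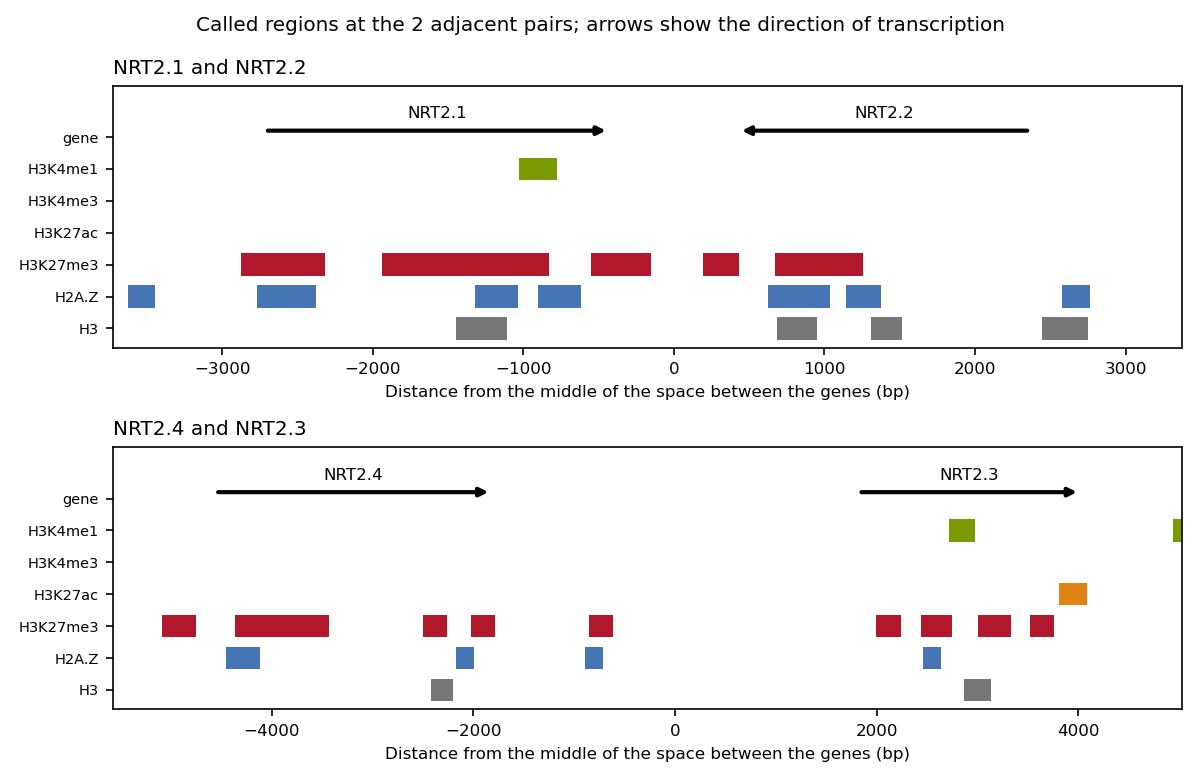
Called regions of 6 targets (coloured bars, rows) at the adjacent pairs, by distance in bp from the middle of the space between the genes, with arrows for the gene spans and their direction. H3K27me3 covers 59.0% of the space between NRT2.1 and NRT2.2 and 7.44% of that between NRT2.4 and NRT2.3.

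NRT2.4 (AT5G60770), one of the starvation genes, spans chr5:24444365-24447127 on the plus strand, 2763 bp with 4 exons. H3K27me3 covered 1379 bp (49.9%) and was densest in the first part of the gene. A region of 925 bp reached from 212 to 1137 bp past the start, longer than all but 3.62% of the genome's H3K27me3 regions. Regions of 241 bp, the smallest size called in that library, lay at 2069 and 2550 bp, and a region of 334 bp lay upstream. The 932 bp between the long region and the next, which hold the third exon and most of the introns beside it, had no region of any target. H2A.Z covered 527 bp (19.1%), of which 52.9% lay under H3K27me3, and its larger region of 344 bp began 115 bp past the start. H3 covered 211 bp (7.64%), and H3K4me1, H3K4me3 and H3K27ac were at 0 bp.

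NRT2.5 (AT1G12940), the other starvation gene, spans chr1:4416315-4418590 on the plus strand, 2276 bp with 3 exons. It was the only member with both H3K27me3 and H3K4me3 on its span, on different bases. Over all protein-coding genes, 45.0% had H3K27me3 and 40.1% had H3K4me3 on the span. The share with both was not counted, so how common this state is cannot be said here. H3K27me3 covered 1024 bp (45.0%), in a region of 433 bp that began 6 bp past the start and one of 591 bp from 1154 to 1745 bp. A further region of 241 bp lay 420 to 179 bp upstream. The single H3K4me3 region, 189 bp from 575 to 764 bp past the start, fell in the gap of 715 bp between the H3K27me3 regions and shared 0 bp with them. All of its 189 bp lay under H2A.Z. This was the smallest size called for H3K4me3, a size held by 50.9% of that library's regions. H2A.Z covered 756 bp (33.2%) in 3 regions, of which 45.0% lay under H3K27me3. H3K27ac, H3K4me1 and H3 were at 0 bp. NRT2.4 and NRT2.5 were the closest pair within the family over the 12 values of cover (6 targets in 2 windows), with a Euclidean distance of 20.9 percentage points, against 55.9 for NRT2.1 and NRT2.2. Among all protein-coding genes, NRT2.5 was only at rank 163 in nearness to NRT2.4, and NRT2.4 at rank 78 in nearness to NRT2.5.

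NRT2.3 (AT5G60780) spans chr5:24450745-24452964 on the plus strand, 2220 bp with 3 exons, and lies downstream of NRT2.4 on the same strand. Its H3K27me3 was broken into 4 regions of 241, 305, 332 and 241 bp that together covered 1119 bp (50.4%), and the first began 189 bp past the start. The share was like that of NRT2.4 while the pieces were shorter, and no region reached 500 bp. H2A.Z covered 183 bp (8.24%), all of it under H3K27me3. NRT2.3 was the only member with both H3K27me3 and H3K27ac. Over all protein-coding genes, 45.0% had H3K27me3 on the span and 15.7% had it without H3K27ac. The H3K27ac region of NRT2.3 began 2000 bp past the start and covered the last 220 bp of the gene (9.91%). It went on for 59 bp toward ABCF1, which ends 293 bp away on the other strand. ABCF1, a gene of the ABC protein family, had 36.7% of its span under H3K27ac and 0% under H3K27me3. H3K4me1 covered 254 bp (11.4%) and H3 271 bp (12.2%) of NRT2.3. The space of 3617 bp between NRT2.4 and NRT2.3 held 269 bp of H3K27me3 (7.44%) and 183 bp of H2A.Z (5.06%). Joined within 500 bp, H3K27me3 regions formed no single domain over this pair, unlike at NRT2.1 and NRT2.2. The longest joined stretch at NRT2.4 was 1650 bp with 76.3% covered, and that on NRT2.3 was 1765 bp with 63.4% covered.

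NRT2.6 (AT3G45060) spans chr3:16477561-16479559 on the minus strand, 1999 bp with 2 exons, and encodes the protein closest to NRT2.3, at 89.3% identity. It had the most continuous H3K27me3 of the family. A single region of 1690 bp reached from 592 bp before the start to 1098 bp past it, and only 66 regions of the genome (0.238%) were longer. A region of 381 bp followed from 1517 to 1898 bp, so that 1479 bp of the gene (74.0%) and 592 bp of the upstream window (59.2%) were covered. H2A.Z had 1 region of its smallest size in the gene, 183 bp (9.15%) close to the start and all under H3K27me3. H3K4me1 touched the last 193 bp (9.65%), toward AT3G45050, whose end lies 36 bp away and which had 31.6% of its own span under H3K4me1, 27.6% under H3K27ac and 0% under H3K27me3. H3K4me3, H3K27ac and H3 were at 0 bp on NRT2.6. NRT2.3 and NRT2.6 had the most alike proteins of the family and differed in the number and length of their H3K27me3 regions and in the cover upstream.

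NRT2.7 (AT5G14570), the transporter of seed vacuoles, spans chr5:4695084-4697078 on the minus strand, 1995 bp with 2 exons. It was the one member with no H3K27me3, and H3K4me3 and H3K27ac regions lay near its start instead. H3K4me3 covered 301 bp (15.1%), from 116 to 417 bp past the start. H3K27ac covered 756 bp (37.9%) in regions of 577 and 179 bp, a share that 10.3% of all genes reached. H2A.Z had 183 bp (9.17%) from 1325 to 1508 bp past the start, away from the H3K4me3 region. H3K4me1 and H3 were at 0 bp on the span. The H3K4me3 and H3K27ac regions shared 184 bp, which is 61.1% of the H3K4me3 bases and 24.3% of the H3K27ac bases. Those shared bases, 233 to 417 bp past the start, all belong to the coding sequence of the first exon and are printed because both marks lie on them. They are written 5′ to 3′ on the strand of the gene, with no capitals.
NRT2.7 (chr5:4696662-4696845, minus strand): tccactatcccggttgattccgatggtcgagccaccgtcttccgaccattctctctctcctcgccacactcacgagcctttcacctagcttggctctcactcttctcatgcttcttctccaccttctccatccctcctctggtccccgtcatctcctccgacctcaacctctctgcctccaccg
This coding stretch held 57.6% G and C. The NRT2.7 protein was the least like the others, at 42.0% to 47.7% identity. Its start lies 128 bp from AT5G14580, a gene on the same strand with 0% under H3K27me3 and H3K27ac.

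H3K27me3 and H2A.Z shared bases in all 6 genes that carried both. In NRT2.1 to NRT2.6 together, H2A.Z covered 3206 bp and H3K27me3 7237 bp, and they shared 2165 bp. The shared bases made up 67.5% of the H2A.Z bases, 29.9% of the H3K27me3 bases and 16.0% of the 13509 bp of these spans. H3K27me3 covered 53.6% of the spans as a whole. In NRT2.1, NRT2.4 and NRT2.5 the share of H2A.Z bases under H3K27me3 (76.6%, 52.9% and 45.0%) was close to the share of the span under it (71.3%, 49.9% and 45.0%), so their overlap was about that of the cover alone. In NRT2.2 these shares were 74.6% and 30.5%. H3 regions lay on 334 bp (52.3%) of the H2A.Z bases of NRT2.2 and on 209 bp (22.8%) of those of NRT2.1. They lay on no H2A.Z base of NRT2.3 or NRT2.4. NRT2.5 and NRT2.6 had no H3 region on the span, so no overlap was possible there. All H2A.Z bases of NRT2.3 and NRT2.6 lay under H3K27me3, and the lowest share was that of NRT2.5. Genes with both targets made up 28.3% of all protein-coding genes and 30.1% of those of similar length, against 6 of 7 members.

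The flanks of the other members differed from gene to gene. RSH2, a gene named for its expression in root hairs, starts 1123 bp beyond the end of NRT2.5 and had 80.6% of its span under H3K27me3. AT1G12930, 10645 bp to the other side, had 3.28%. AT5G60760, 2077 bp before NRT2.4, had 16.5% under H3K27me3 and 29.9% under H2A.Z. AT3G45070, 6714 bp from the start of NRT2.6, had 3.06% under H3K27me3. AT5G14560, a short gene of 123 bp that lies 997 bp past the end of NRT2.7, had 63.4% under H2A.Z. High H3K27me3 cover of a member therefore went with both high and low cover of the next gene.

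The genes most like each member over the same 12 values were as follows, 3 for each member, with the Euclidean distance in percentage points. NRT2.1 was nearest to AT2G15020 (13.0), bZIP3 (16.4) and AT2G30220 (18.8). The nearest to NRT2.2 were AT1G34580 (14.2), CHX6B (18.6) and AT5G35090 (22.3), and those to NRT2.3 were ALMT1 (6.79), RR21 (8.19) and HB-7 (9.22). No member was among the 3 nearest genes of another. NRT2.4 stood nearest to AT1G44542 (8.19), HEC3 (8.22) and PAP6 (8.28), and NRT2.5 to AT1G22000 (9.48), CYP82C3 (9.99) and RL4 (10.2). NRT2.6 was nearest to CYP96A3 (9.61), AT3G45560 (12.6) and AG (12.9), and NRT2.7 to AT3G14750 (9.62), AT5G66830 (15.9) and SUN1 (16.5). ALMT1 encodes a malate transporter of the root and AG a floral homeotic regulator known as a Polycomb target. The members farthest apart were NRT2.6 and NRT2.7, at 109.

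Other genes of nitrate uptake, assimilation and signalling carried H3K27ac more often than H3K27me3, which is also the order over all genes. Of 33 such genes, 31 (93.9%) had H3K27ac on the span, against 68.3% of all genes, and 21 (63.6%) had H3K27me3, against 45.0%. Spans of the 33 ran from 1533 bp (LBD39) to 10110 bp (GLT1). Their counts, here and by role, were not matched for gene length. A longer span is more easily counted, since 1 bp is enough. The medians of cover were 14.5% for H3K27ac and 6.97% for H3K27me3, and 11.9% and 0% over all genes. H3K27me3 without H3K27ac was the state of 2 of the 33, NRT3.1 and NPF2.7, against 5 of the 7 NRT2 genes, 15.7% of all protein-coding genes and 12.3% of those of similar length. NRT3.1, the partner of the NRT2 proteins, had 324 bp (19.8%) under H3K27me3, 431 bp under H3K27me3 upstream and 436 bp (26.7%) of the span under H2A.Z, with no H3K27ac, H3K4me3, H3K4me1 or H3. NPF2.7, an exporter of nitrate from root cells, had 447 bp (17.5%) under H3K27me3. It also had 189 bp (7.40%) under H3K4me3 on the span. Upstream of NPF2.7 lay 285 bp of H3K4me3, 230 bp of H3K27me3 and 179 bp of H3K27ac. NPF6.3 (NRT1.1), the dual-affinity transporter and nitrate sensor, had no H3K27me3 and 583 bp (13.3%) under H3K27ac. The highest H3K27me3 share among the 33 was 42.3% on CEPR1, a receptor of nitrogen-demand peptides, followed by 39.5% on NIA1, a nitrate reductase gene. NRT2.1, NRT2.3, NRT2.4, NRT2.5 and NRT2.6 all lay above that.

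By role, the other genes with H3K27me3 were 5 of 9 further transporters, 5 of 6 assimilation genes and 10 of 17 regulators, where 45.0% of all genes carried it. H3K27ac was on 8, 6 and 17 of the same genes, against 68.3% of all. The highest H3K27ac shares were on NIR1, the nitrite reductase gene (1348 bp, 52.9%), and LBD39, a repressor of nitrate-responsive genes (775 bp, 50.6%). For H3K4me3, which 19 of 33 (57.6%) and 40.1% of all genes carried, they were on the factor genes TGA1 (1376 bp, 38.0%) and HRS1 (677 bp, 35.3%). H3K4me1 was on 18 of 33 (54.5%, against 53.4% of all genes) and highest on the kinase genes CIPK8 (33.6%) and CIPK23 (32.6%). H2A.Z was on 17 of 33 (51.5%, against 56.2%), highest on LBD39 (35.8%) and CEPR1 (33.9%). H3 was on 18 (54.5%, against 45.0%), highest on NIR1 (29.9%) and on the transporter gene NPF7.2 (23.3%). Upstream, H3K27me3 was at 8 of the 33 (24.2%, against 28.3%) and H3K27ac at 9 (27.3%, against 34.1%). The counts for H3K4me1, H2A.Z and both upstream targets were near those of all genes.

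**Figure D5:**
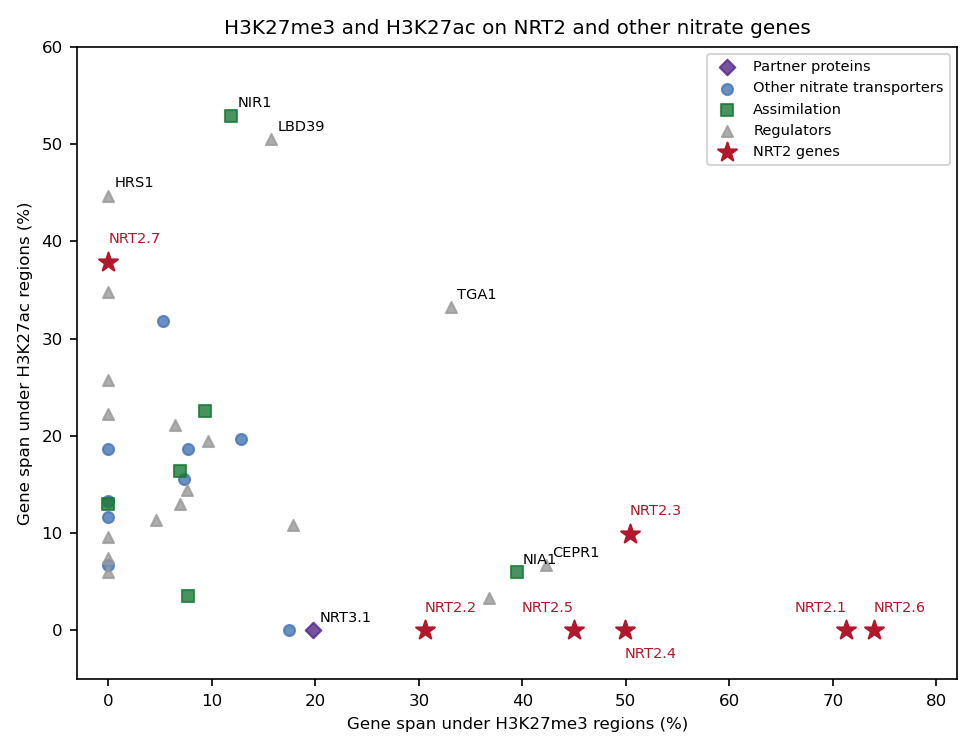
Percent of the gene span under H3K27me3 (horizontal axis) and under H3K27ac (vertical axis) for the 7 NRT2 genes (stars) and 33 other genes of nitrate uptake, assimilation and signalling, 1 point per gene and 1 library per axis. NRT2.1, NRT2.2, NRT2.4, NRT2.5 and NRT2.6 lie at 0% H3K27ac with 30.5% to 74.0% H3K27me3, whereas NRT2.7 lies at 0% H3K27me3.

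Region lists of the 6 libraries held from 14717 regions (H3K4me3) to 36146 (H3K27ac), and H3K27me3 covered 8.84% of the genome. In each list 39.2% to 63.4% of the regions had that list's smallest size, between 179 and 254 bp. The labelled cell type was looked at through genes of other root cells. The non-hair list held GL2, WER, TTG1, EGL3, CPC and TTG2, and a place on it does not mean that a gene promotes non-hair fate. H3K27me3 was on 2 of these 6 (GL2 and EGL3) and on 6 of 6 root hair genes. It was on 2 of 4 endodermis genes and on 4 of 4 xylem and stele genes. H3K27ac was on 4, 2, 4 and 0 genes of the same lists. Over all genes the shares were 45.0% and 68.3%, and the counts for non-hair genes and that for H3K27me3 on endodermis genes were near these. GL2 itself, whose promoter drives the tag, had 1311 bp under H3K27me3 and 412 bp under H3K27ac. No transcript levels were measured, so these genes give the state of their chromatin and not the purity of the nuclei. A mixture of cells with and without a mark cannot be told apart from 1 state in all cells.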

How the data were processed

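Chromatin immunoprecipitation libraries of non-hair cell nuclei were used, 1 for each of 6 targets. The authors deposited called regions as chromosome, start and end, with no score, count or signal. The submitters' processing notes name build TAIR10 and the tools HOMER, Bowtie2, deepTools 2.0 and SAMtools 0.1.19. For the caller, no settings, threshold or control library is given in the sources used here. Depth is unknown.

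Starts were read as counted from 0, and regions on chromosomes 1 to 5 were kept. Genes came from the RefSeq annotation of TAIR10.1. Bases under regions were summed over each gene span and over 1000 bp upstream with Python 3.11.15 and NumPy 2.4.6, and checked on simulated regions. A gene carried a target when at least 1 bp was covered. Shares are percent of the window. Genes of similar length had spans within the range of the members. Proteins were translated from the annotated coding sequences and aligned with Biopython 1.88. Motifs were searched in the 1000 bp windows read from the genome, since no promoter table was given. Named outside genes were the flanking genes, the 3 most alike genes of each member, the 2 with the highest share per target in the nitrate list, and NRT3.1, NPF2.7 and NPF6.3, which were named after their values were seen. Of 42 nitrate genes listed, 9 were left out because the annotation gives their locus no such symbol. Members and lists were chosen with earlier results of these data known. Alternatives were a minimum of 200 bp, leaving out regions of the smallest size, regions of at least 500 bp, and upstream windows of 500 and 2000 bp.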

Additional observations from a re-analysis of the deposited data

How the results depend on the processing

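Counts of members depended most on short regions. Of 48 alternative values of the 12 counts, 27 stayed within 1.5 times the value reported and 21 moved further. The upstream counts of H3K4me3 and H3K27ac were 0 to begin with. An alternative that only leaves out bases or regions could not change them, so their places among the 27 say nothing about stability. On the gene span, H3K27me3 stayed on 6 members under every alternative except regions of at least 500 bp, where NRT2.3 dropped out and 5 remained. With a minimum of 200 bp, H3K4me3 fell to 1 member and H2A.Z to 4 on the span, where 25.7% and 38.2% of all genes then carried them, and H2A.Z to 1 upstream, against 12.7%. Without regions of the smallest size, the span counts were 0 for H3K4me1, 1 for H3K4me3 and 4 for H2A.Z, against 39.9%, 23.7% and 35.2% of all genes. H3K27me3 was then on 6 members and 27.8% of genes. Upstream counts were 0 for H3K4me1, 1 for H2A.Z and 1 for H3, against 10.3%, 16.5% and 5.72%. With regions of at least 500 bp only, the span counts were 0 for H3K4me1, H3K4me3, H2A.Z and H3 and 1 for H3K27ac, against 18.6%, 4.24%, 4.72%, 1.02% and 15.2%, and the 5 members with H3K27me3 stood against 12.5%. Upstream they were then 0 for H3K4me1, H2A.Z and H3, and 2 for H3K27me3 (NRT2.1 and NRT2.6), against 3.64%, 2.27%, 0.222% and 7.97%. An upstream window of 500 bp gave 0 for H3K4me1 and 1 for H3, against 5.95% and 7.02%, and one of 2000 bp gave 5 for H2A.Z, against 46.9%. Each change follows from the bases or regions that the alternative leaves out or adds. H3K27me3 on NRT2.3 was 1119 bp in all, 637 bp without regions of the smallest size and 0 bp with regions of at least 500 bp, while NRT2.6 had 1479, 1479 and 1098 bp. No paired analysis was possible because each target had 1 library. With depth unknown, a target at 0 bp was not called at that place and may be present below the authors' threshold.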
